A study of Mus musculus with 62 samples.

Results

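Sirtuins are enzymes that remove acetyl and other acyl groups from lysines and consume one molecule of NAD for each group removed. Mammals have a family of them, spread over the nucleus, the cytosol and the mitochondria, and they tie the acylation of proteins to the NAD supply of the cell. In skeletal muscle they are studied for their part in mitochondrial fuel use, in the response to exercise and as targets of compounds meant to raise NAD. The 7 genes of the family, Sirt1 to Sirt7, were found by symbol among 55487 gene identifiers in a table of poly-A RNA read counts from mouse quadriceps. All 7 passed the filter on low counts, as did 14549 genes in all.

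The RNA came from 62 male mice in 8 groups of 7 or 8, in every combination of voluntary wheel running (labelled Training), nicotinamide riboside (NR, a form of vitamin B3 that cells turn into NAD) and pterostilbene (PT, a relative of resveratrol found in plants). Running mice with neither supplement and running mice with NR alone numbered 7 each. The other groups, which were running mice with PT or with both supplements and non-running mice with neither, NR, PT or both, numbered 8 each. The series title gives the NR route as intravenous, and the sample labels give neither dose, strain nor age. Within each of 8 termination days the runners and the non-runners were taken at different times, noon or morning, and the 30 runners came at noon on 4 days and in the morning on 4. Running and session therefore cannot be told apart within a day, while the time of day was balanced over days.

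Libraries held 5.64 to 30.8 M counts, with a median of 16.1 M. Skeletal muscle markers were present in every library, with a sum of 8 genes between 115070 and 206370 CPM (counts scaled to library size), led by the fast myosin gene Myh4. In 8 libraries, 4 of them from runners, ribosomal-RNA-like genes exceeded 5 times the median level of 548 CPM, and the results on running are given with and without them below.

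Compared per kilobase of exon, which allows for the length of each gene, Sirt2 was the most abundant sirtuin in quadriceps. SIRT2 is the mainly cytosolic deacetylase, known for its action on tubulin. Its mean level over 62 animals was 19.9 ± 1.22 CPM per kilobase (SD), and its lowest animal, at 15.5, lay above the highest animal of every other sirtuin. Sirt4 followed at 3.71 ± 0.406 CPM per kilobase, Sirt3 at 2.61 ± 0.408, Sirt1 at 2.39 ± 0.281, Sirt6 at 1.56 ± 0.271, Sirt5 at 1.50 ± 0.224 and Sirt7 at 1.10 ± 0.175. Sirt2 exceeded Sirt4 by 5.36-fold, and Sirt4 exceeded Sirt3 in 62 of 62 animals. The length used takes in all annotated exons of a gene, and the length of the mRNA expressed here was not measured. Without regard to length, Sirt3 had a mean of 15.6 CPM and Sirt4 8.91 CPM. The order of these 2 genes therefore rests on their lengths of 5973 and 2398 bases. Sirt3 was above Sirt1 in 43 of 62 animals and Sirt6 above Sirt5 in 38 of 62, so these neighbours lay within the spread between animals. Sirt1 was above Sirt6 in 62 of 62 animals and Sirt5 above Sirt7 in 57.

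**Figure D1:**
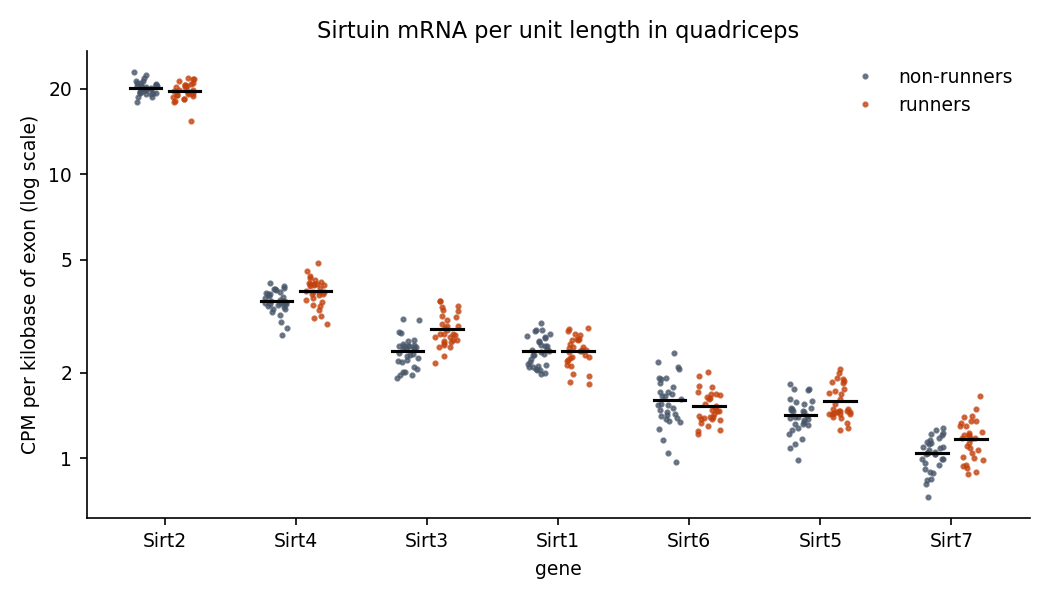
CPM per kilobase of exon (log scale) of each sirtuin in every animal, with non-runners in grey, runners in orange and the mean of each as a black line. Sirt2, at a mean of 19.9 CPM per kilobase, stands above the other 6 genes, whose means lie between 1.10 and 3.71.

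The members also differed in how much they varied between animals. The coefficient of variation over all 62 animals was 6.13% for Sirt2, 10.9% for Sirt4, 11.8% for Sirt1, 14.9% for Sirt5, 15.6% for Sirt3, 15.8% for Sirt7 and 17.3% for Sirt6. Counts per library set part of the precision: Sirt2 had 301 to 3285 counts, whereas Sirt6 had 21 to 153 and Sirt7 24 to 202. Intervals and standard errors below cover the spread between animals with this counting error in it.

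In mm10, as deposited, Sirt1 lies at chr10:63319005-63381704 and Sirt6 at chr10:81621785-81627566, both on the minus strand. Sirt3, at chr7:140863666-140882289 on the minus strand, and Sirt2, at chr7:28766735-28788660 on the plus strand, share another chromosome. Sirt4 lies at chr5:115478010-115484725 and Sirt7 at chr11:120618372-120624969, both minus, and Sirt5 at chr13:43365496-43395203, plus. Sirt3 overlaps 2 genes on the opposite strand: by GENCODE M21, 342 of its exon bases (5.73%) are shared with Psmd13, a proteasome subunit gene, and 418 (7%) with Ric8a. Sirt2 shares 42 exon bases with Nfkbib, also opposite. Whether strand was used in the counting is not given in the sources used here, and reads from these stretches may belong to either gene.

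Promoter stretches of 2 sirtuins and a short site of Sirt3 are shown because they hold matches to motifs of regulators that are measured below or known in muscle, among 6 motifs searched. They come from RefSeq windows in GRCm38.p6 that cover 250 bases before each annotated start. All 7 sirtuins matched, with 9 windows, and bases inside exons of any gene were left out, apart from the short site. Capitals mark the motif. The Sirt5 stretch is chr13:43365285-43365495 on the plus strand, with the half-site of oestrogen-related receptors, AAGGTCA, 165 bases before the start. The Sirt1 stretch is chr10:63339051-63339285 on the minus strand, upstream of a RefSeq start that lies inside the deposited gene span, with E-boxes, CACGTG, at 115 and 43 bases before it. The Sirt3 site at chr7:140882378-140882404, on the minus strand, holds the ETS core CCGGAAG in reverse, 85 bases before the start.
Sirt5: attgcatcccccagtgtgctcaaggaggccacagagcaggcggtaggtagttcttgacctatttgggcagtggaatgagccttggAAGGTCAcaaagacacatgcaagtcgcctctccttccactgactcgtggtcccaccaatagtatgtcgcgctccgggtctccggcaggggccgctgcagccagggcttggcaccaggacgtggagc
Sirt1: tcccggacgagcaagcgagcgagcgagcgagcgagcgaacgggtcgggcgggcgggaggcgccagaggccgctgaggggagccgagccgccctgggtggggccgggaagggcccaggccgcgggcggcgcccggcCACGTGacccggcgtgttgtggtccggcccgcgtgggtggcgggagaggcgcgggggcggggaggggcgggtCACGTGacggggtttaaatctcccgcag
Sirt3: tgctcgctcaCTTCCGGcaccgcgggc

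Searched on both strands, AAGGTCA was found in 1 of 9 sirtuin windows and in 4.08% of all 32851 windows. CACGTG was in 1 of 9 against 6.02%, and CCGGAAG in 3 of 9, 1 each of Sirt3, Sirt6 and Sirt7, against 6.91%. The palindromic NRF1 motif was in 1 of 9, that of Sirt6, against 3.74%. The SP1 motif GGGCGG was in 6 of 9 against 32.7%, and the CRE motif TGACGTCA in 0 of 9 against 1.55%. These matches describe letters in a window and were not tested for binding.

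With running 3 sirtuins rose, Sirt3, Sirt4 and Sirt5, which are the members whose proteins work in mitochondria. None of the other 4 passed the test and none of the 7 fell. The counts were compared over 30 runners and 32 non-runners with edgeR's quasi-likelihood test, with adjusted p-values under 0.05 taken as calls. The share of all genes tested that were called was 14%, and 8.41% were called as higher in runners. Only the call of Sirt3 held under all 20 other settings tried, while that of Sirt4 held in 5 and that of Sirt5 in 10. Differences in response between one sirtuin and another were not tested.

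SIRT3 is the main deacetylase of the mitochondrial matrix. In non-runners its mRNA had a lowest, median and highest level of 11.4, 14.5 and 18.4 CPM, and in runners 13.0, 16.4 and 21.5 CPM. The ranges overlapped between 13.0 and 18.4 CPM, and the upper end belonged to runners. The change was 0.26 ± 0.05 on the log2 scale (SE), a rise of 1.20-fold with a 95% interval from 1.12 to 1.28 (edgeR adjusted p = 9.54e-05). Paired by day and supplement, the runner was higher in 24 of 30 pairs. All 4 running groups had higher means (16.2 to 17.7 CPM) than all 4 non-running groups (13.7 to 14.4 CPM).

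Sirt3 was also higher in the runners' session on 8 of 8 days, on the 4 days with runners at noon as on the 4 with runners in the morning. With counts summed per session, which makes the session the unit, its log2 change was 0.26 ± 0.04 (edgeR adjusted p = 0.00444, where 8.76% of all genes were called) and it was the only sirtuin called. It was likewise the only one called in each cohort of 31 mice alone, with 0.24 ± 0.07 in cohort 1 (edgeR adjusted p = 0.0386, 4.31% of genes called) and 0.26 ± 0.05 in cohort 2 (edgeR adjusted p = 0.035, 0.42% called). The neighbours that share exon bases with it on the opposite strand did not pass the test, with log2 changes of -0.01 ± 0.03 for Psmd13 (edgeR adjusted p = 0.818) and 0.03 ± 0.03 for Ric8a (edgeR adjusted p = 0.508).

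SIRT4, a mitochondrial enzyme with lipoamidase activity on the pyruvate dehydrogenase complex, had an mRNA level of 6.49, 8.55 and 9.93 CPM in non-runners (lowest, median, highest) and 7.10, 9.29 and 11.7 CPM in runners. The groups overlapped over most of their range, with 21 of 30 pairs higher in the runner. The log2 change was 0.11 ± 0.04 (SE), or 1.08-fold (edgeR adjusted p = 0.0359). Without the 8 libraries high in ribosomal-RNA-like reads it was 0.11, with an edgeR adjusted p of 0.0864.

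SIRT5 removes succinyl, malonyl and glutaryl groups. Its mRNA stood at 6.00, 8.56 and 11.2 CPM in non-runners and at 7.65, 9.02 and 12.5 CPM in runners, so that the medians differed less than the ends of the range. The runner was higher in 18 of 30 pairs. The log2 change was 0.16 ± 0.05 (SE), or 1.11-fold (edgeR adjusted p = 0.0308), and without the same 8 libraries 0.16, with an edgeR adjusted p of 0.0585. Taking these mitochondrial members together, all of Sirt3, Sirt4 and Sirt5 were higher in the runner in 12 of 30 pairs, 2 of them in 11 pairs, 1 in 5 pairs and none in 2.

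**Figure D2:**
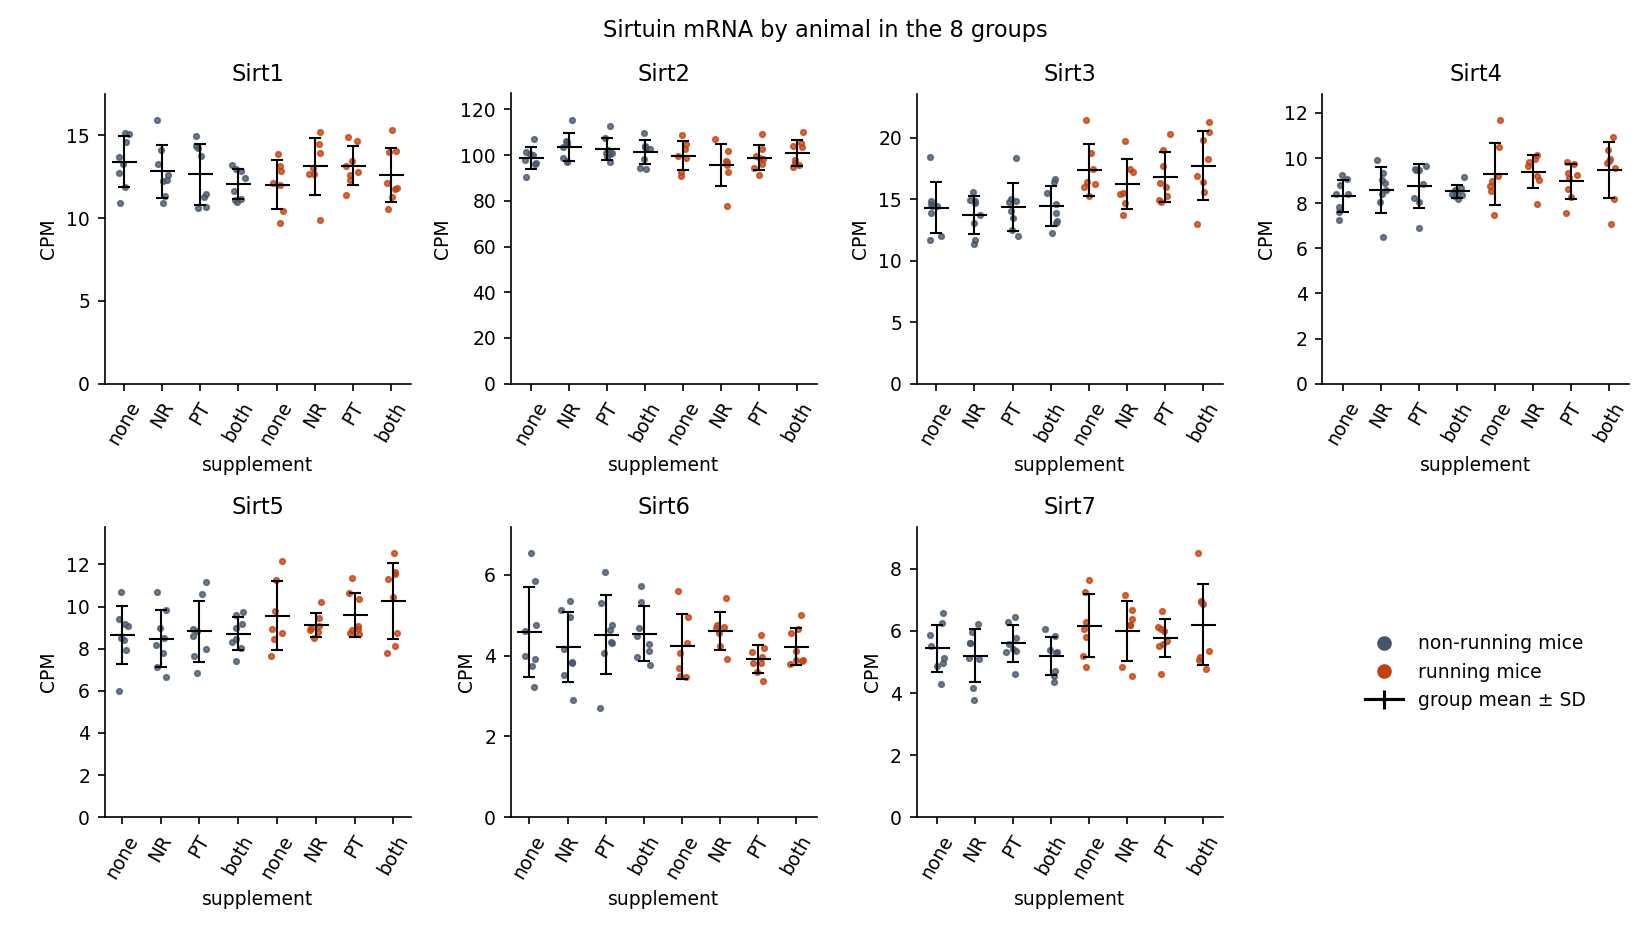
CPM of each sirtuin in every animal by supplement (none, NR, PT or both), with non-running mice in grey and running mice in orange, and the group mean ± SD in black. The 4 running means of Sirt3, 16.2 to 17.7 CPM, lie above the 4 non-running means, 13.7 to 14.4 CPM, while the groups of Sirt1, Sirt2 and Sirt6 lie at similar heights.

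Among the nuclear members, Sirt7 came closest to the threshold. SIRT7 is a nucleolar enzyme that acts on chromatin and on ribosomal RNA synthesis. Its mRNA level was 3.77, 5.38 and 6.60 CPM in non-runners and 4.54, 6.08 and 8.50 CPM in runners (lowest, median, highest), and the groups overlapped between 4.54 and 6.60 CPM. The log2 difference was 0.16 ± 0.06 (SE), as large as that of Sirt5, with an edgeR adjusted p of 0.0519, and it did not pass the test. The runner was higher in 20 of 30 pairs and the runners' session on 8 of 8 days.

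Sirt1, which encodes the nuclear deacetylase best known for acting on PGC-1alpha and p53, had the same median of 12.7 CPM in runners and non-runners. Its range was 9.71 to 15.3 CPM in runners and 10.6 to 15.9 CPM in non-runners. The log2 difference was -0.00 ± 0.04 (edgeR adjusted p = 0.982), with a 95% interval from -0.09 to 0.08, and its sign differed between settings. The runner was higher in 13 of 30 pairs.

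Sirt2 had 90.4, 101 and 115 CPM in non-runners and 77.8, 98.7 and 110.1 CPM in runners (lowest, median, highest). Its log2 difference of -0.04 ± 0.02 did not pass the test (edgeR adjusted p = 0.230), although the runners' session was higher on 1 of 8 days only. Nfkbib, which overlaps Sirt2, fell by 0.18 on the log2 scale (edgeR adjusted p = 0.00428). Sirt6, which encodes a chromatin enzyme of DNA repair and glucose metabolism, had 2.69, 4.31 and 6.53 CPM in non-runners and 3.38, 4.11 and 5.60 CPM in runners. Its log2 difference was -0.07 ± 0.06 (edgeR adjusted p = 0.511), and its 95% interval from -0.20 to 0.06 was the widest of the 7.

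**Figure D3:**
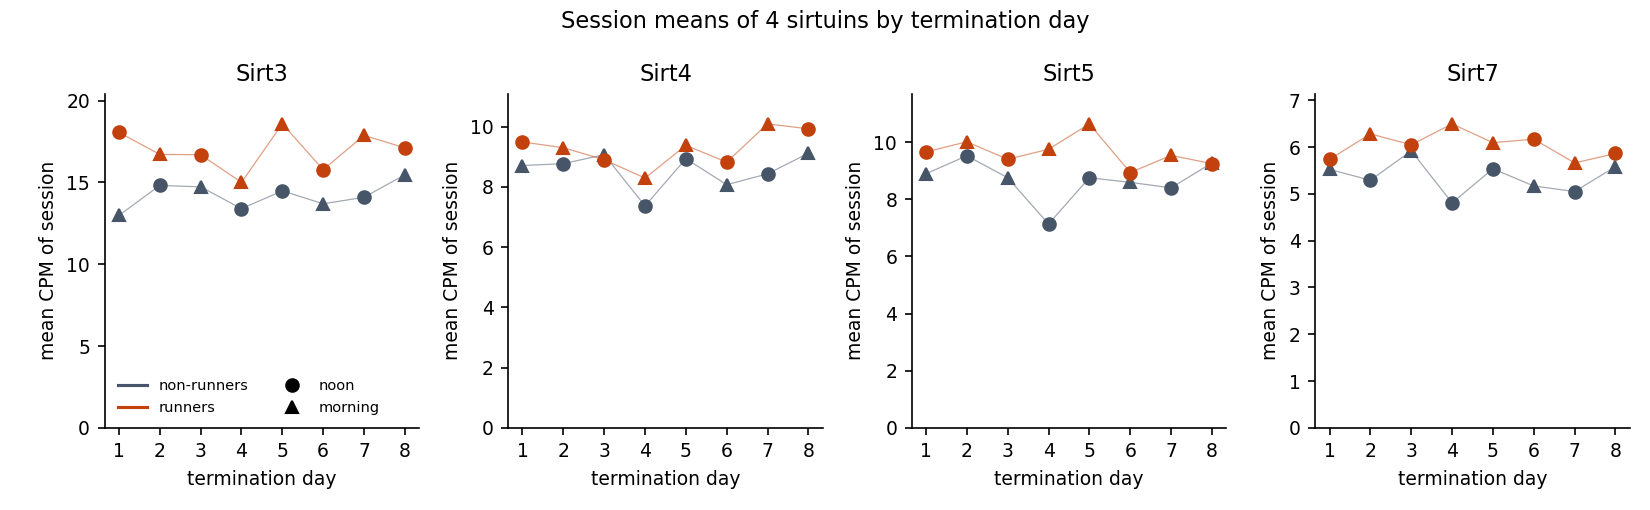
Mean CPM per session of Sirt3, Sirt4, Sirt5 and Sirt7 on each of 8 termination days, for runners (orange) and non-runners (grey), with circles for noon and triangles for morning. The runners' session is higher on 8 days for Sirt3 and Sirt7 and on 7 for Sirt4 and Sirt5.

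Neither supplement moved any sirtuin past the threshold. For NR, 31 mice with it were compared with 31 without, and 0 of 7 sirtuins were called by edgeR, DESeq2 or limma (0.0206% of all genes by edgeR), with 0 at an unadjusted p below 0.05 in edgeR. The log2 differences ran from -0.03 for Sirt7 to 0.03 for Sirt4, and all 7 95% intervals lay between -0.15 and 0.15. Sirt1 had 9.91, 12.6 and 15.9 CPM with NR and 9.71, 12.8 and 15.1 CPM without it (lowest, median, highest). Sirt3 had 11.4, 15.4 and 21.3 CPM with NR and 11.7, 15.0 and 21.5 CPM without it. These groups overlapped almost fully.

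For PT, 32 mice with it and 30 without were compared, and again 0 of 7 were called by the same 3 tools (0% of all genes by edgeR), with 0 at an unadjusted p below 0.05 in edgeR. The differences ran from -0.03 for Sirt6 to 0.06 for Sirt5, with 95% intervals between -0.16 and 0.16. Sirt1 had 10.6, 12.5 and 15.3 CPM with PT and 9.71, 12.8 and 15.9 CPM without it. Sirt5, the member with the largest difference, had 6.83, 8.92 and 12.5 CPM with PT and 6.00, 8.92 and 12.2 CPM without it, so the medians were the same at this rounding.

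**Figure D4:**
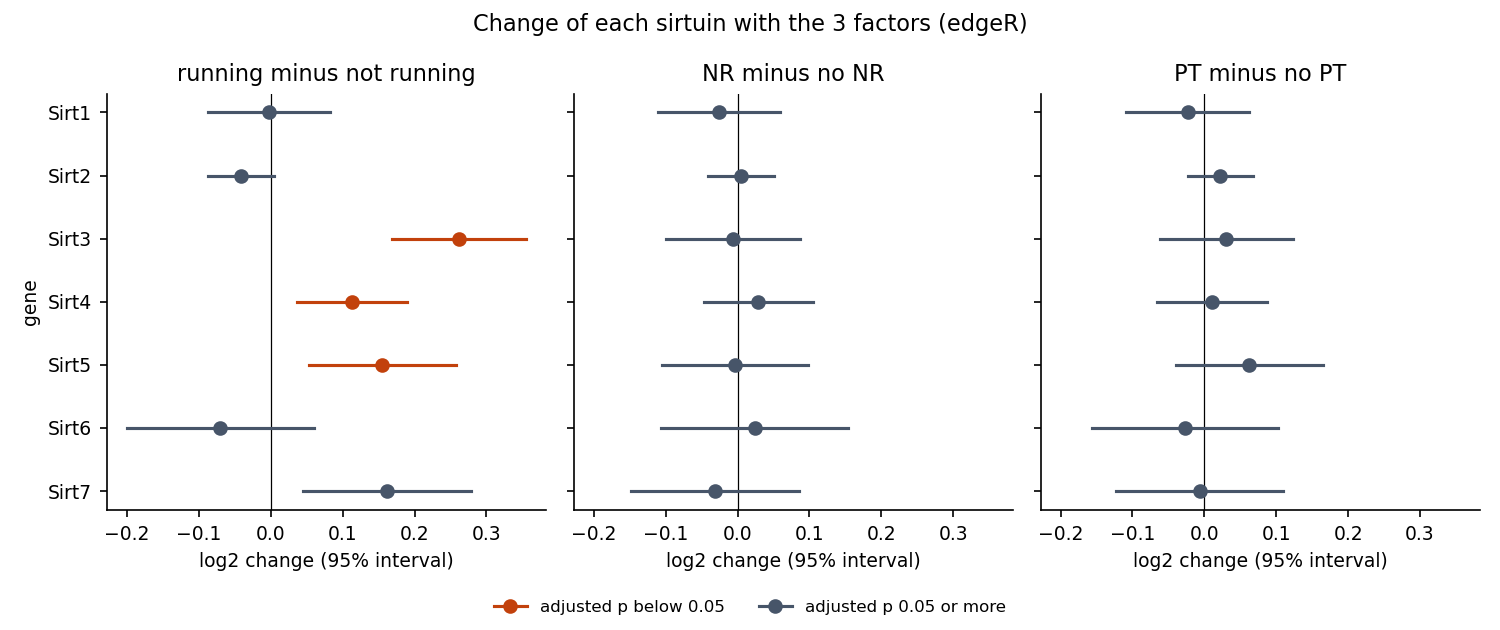
Log2 change of each sirtuin with running, NR and PT from edgeR, as points with 95% intervals, in orange where the adjusted p is below 0.05. Sirt3, Sirt4 and Sirt5 are orange for running, at 0.26, 0.11 and 0.16, and every interval for NR and PT crosses 0.

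No interaction of the supplements with running passed the test. For each of running by NR, running by PT, NR by PT and the 3-way term, 0 of 7 sirtuins were called by edgeR, DESeq2 or limma (0% of all genes by edgeR), with 0 at an unadjusted p below 0.05. The intervals are wide: for running by NR they reach from -0.16 to 0.42 on the log2 scale over the 7 genes. Within single arms the running change of Sirt3 was 0.26 with neither supplement, 0.27 with NR, 0.23 with PT and 0.29 with both, and the runner was higher in 6 of 7, 6 of 7, 6 of 8 and 6 of 8 pairs. No sirtuin was called by edgeR in any arm of 7 or 8 runners, where 0%, 0.447%, 0.00687% and 1.7% of all genes were called in that order. At an unadjusted p below 0.05 there were 1, 2, 1 and 3 sirtuins, beside 6.8%, 10.9%, 9.22% and 16.6% of all genes.

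Time of termination was compared as well, since several clock proteins are linked to sirtuins. At noon against morning 0 of 7 were called (0% of all genes by edgeR), with 1 at an unadjusted p below 0.05, a threshold that 5.28% of all genes passed. That was Sirt1, at 9.71, 12.3 and 15.3 CPM at noon and 10.9, 13.2 and 15.9 CPM in the morning, a log2 difference of -0.12 ± 0.04 (edgeR adjusted p = 0.691).

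Sirt3 and Sirt5 also varied together from animal to animal, among runners as among non-runners. Of 21 pairs of sirtuins, 4 had a correlation of log2 CPM over 62 animals with an adjusted p below 0.05 (two-sided permutation test, 100000 resamples, Benjamini-Hochberg over 21 pairs). The resamples did not keep runners and non-runners apart, so a shared difference with running enters these p-values, and the values within each are given without a p. Sirt3 and Sirt5 were the closest, with Pearson r = 0.65 and Spearman rho = 0.61 (both with permutation p = 1e-05, the smallest these resamples can give, adjusted 0.00021). Without the 2 animals farthest from the median of Sirt3 their r was 0.60. It was 0.71 within runners, 0.45 within non-runners, 0.71 in cohort 1 and 0.59 in cohort 2.

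Sirt3 and Sirt4 had r = 0.41 and rho = 0.41 (permutation p = 0.0011 and 0.00096, adjusted 0.0079 and 0.0067), and r = 0.33 without the 2 farthest animals. Within runners r was 0.44 and within non-runners 0.04, so in non-runners the relation was not seen, and it was 0.28 and 0.54 in the cohorts. Sirt4 and Sirt5 had r = 0.35 and rho = 0.30 (permutation p = 0.0049 and 0.016, adjusted 0.026 and 0.066), so that only the first passed, and r = 0.24 without the 2 farthest animals, 0.17 within runners, 0.34 within non-runners, and 0.33 and 0.38 in the cohorts.

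Sirt1 and Sirt2 were the only pair to pass with a negative sign. Their r was -0.47 and their rho -0.48 (permutation p = 0.00013 and 6e-05, adjusted 0.0014 and 0.00063), and r was -0.46 without the 2 animals farthest from the median of Sirt1. It was -0.55 within runners, -0.41 within non-runners, -0.52 in cohort 1 and -0.41 in cohort 2. These animals share library scaling, and its part in the relations was not tested.

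Among 11768 genes that averaged 1 CPM or more, the 3 most like Sirt3 in log2 CPM over 62 animals were Mtfp1, a mitochondrial fission gene (r = 0.83), Mdh1, cytosolic malate dehydrogenase (0.83), and Ckmt2, the sarcomeric mitochondrial creatine kinase (0.82). Those most like Sirt5 were Got1, an aspartate aminotransferase (0.84), Mb, myoglobin (0.83), and Ldhb, a lactate dehydrogenase subunit (0.83). The nearest to Sirt2 was Aldoa, muscle aldolase (0.76), and the nearest to Sirt1 was Larp4 (0.68). Sirt7 was nearest to Hspa12b (0.56), Sirt4 to Znrf1 (0.54) and Sirt6 to Sfxn5 (0.50). These values are descriptions, and genes of 1 library share its depth and scaling. They pool runners and non-runners, so a shared difference with running enters them, and values within each are not given. The genes named for Sirt3 rose with running by 0.27, 0.29 and 0.52 on the log2 scale, and those for Sirt5 by 0.24, 0.67 and 0.43. Of the others named, Hspa12b rose by 0.14, and Aldoa, Larp4, Znrf1 and Sfxn5 did not pass the test for running.

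Running also raised genes for mitochondrial proteins on which sirtuins act. Of 18 such genes tested, 12 rose and 0 fell, beside 8.41% of all genes called as higher and 14% called in all. The median log2 change of the 18 was 0.14, against a median over all genes of 0.01. Got2, the mitochondrial aspartate aminotransferase, rose from 221.8 to 280.7 CPM (log2 0.33 ± 0.05, SE). The pyruvate dehydrogenase subunits Pdha1 and Dlat changed by 0.25 ± 0.04 and 0.22 ± 0.04, and Ndufa9, a complex I subunit, by 0.19 ± 0.04 (edgeR adjusted p at most 0.00165 for these 4). The number that rose was 4 in cohort 1 alone, 2 in cohort 2 alone, and 10 without the libraries high in ribosomal-RNA-like reads. Of all genes, 4.31%, 0.42% and 12.1% were called in these settings, in that order. With counts summed per session, where 8.76% of all genes were called, 10 rose and 1 fell.

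Of 15 nuclear and cytosolic sirtuin substrates, 1 rose and 1 fell, a share near the 14% of all genes called for running. Ppargc1a, which encodes PGC-1alpha, rose by 0.20 ± 0.05 on the log2 scale (edgeR adjusted p = 0.00283), and Myod1, the myogenic transcription factor, changed by -0.32 ± 0.06 (edgeR adjusted p = 0.000229). Ppargc1a was also the only 1 of 12 listed regulators of sirtuin transcription to be called. Its partner gene Esrra, the oestrogen-related receptor whose half-site is capitalised above, had a log2 difference of 0.11 ± 0.04 that did not pass (edgeR adjusted p = 0.051). Of the nuclear and cytosolic substrates, 0 rose and 1 fell in cohort 1 alone, and 0 were called in cohort 2 alone. Without the libraries high in ribosomal-RNA-like reads 1 rose and 3 fell. Of all genes, 4.31%, 0.42% and 12.1% were called in these settings, in that order.

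No enzyme that makes NAD passed the test for running. Of 12 genes of NAD synthesis and clearance tested, 0 rose and 0 fell, beside 14% of all genes called. An unadjusted edgeR p below 0.05 was met by 1 of the 12 and by 28.5% of all genes. That 1 gene was Nadsyn1, the NAD synthetase (log2 difference 0.16 ± 0.07, edgeR adjusted p = 0.113). Under each of the 20 other settings, DESeq2 and limma among them, 0 of the 12 were called. The share of all genes called in those settings ran from 0.42% in cohort 2 alone to 18.1% in DESeq2. A count of 0 in a list this short is not read as a difference from all genes. Nampt, the rate-limiting enzyme of NAD salvage, stood at 165 CPM in runners and 169 in non-runners. With NR, 1 of the 12 fell and 0 rose, beside 0.0206% of all genes called. The 1 that fell, Nmrk2, the muscle kinase that phosphorylates NR, changed by -1.11 ± 0.14 (edgeR adjusted p = 4.19e-06).

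Among 17 other enzymes that consume NAD, 4 rose and 1 fell with running, beside 8.41% of all genes called as higher and 14% called in all. Cd38, an NAD glycohydrolase, rose from 9.11 to 11.5 CPM (log2 0.34 ± 0.06, edgeR adjusted p = 0.000152). Parp10, Parp12 and Parp14, which are ADP-ribosyltransferases, changed by 0.26 ± 0.06, 0.18 ± 0.05 and 0.25 ± 0.08, and Tnks2, a tankyrase, by -0.09 ± 0.03. In cohort 1 alone 1 of the 17 rose and in cohort 2 alone 0, beside 4.31% and 0.42% of all genes called. Of the 11 zinc-dependent deacetylases, the other class that removes acetyl groups, Hdac1 and Hdac7 rose, by 0.12 ± 0.04 and 0.17 ± 0.05 (edgeR adjusted p = 0.0279 and 0.00775), and 0 fell, which is also near the 14% of all genes called. In the cohorts alone, where 4.31% and 0.42% of all genes were called, 0 of this class were called. Without the libraries high in ribosomal-RNA-like reads, where 12.1% of all genes were called, 2 rose and 1 fell.

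Other features of the tissue moved with running, and their part in the sirtuin values was not tested. In bulk tissue, more cells of a type and more RNA per cell cannot be told apart. Of 12 nuclear genes used as a gauge of mitochondrial content, such as Cs and Cox4i1, 6 rose and 0 fell. Beside this, 8.41% of all genes were called as higher and 14% in all. The number that rose was 2 in cohort 1 alone, 0 in cohort 2 alone and 6 without the libraries high in ribosomal-RNA-like reads. These settings called 4.31%, 0.42% and 12.1% of all genes, in that order. The summed level of the 12 genes was 5605, 7139 and 9033 CPM in runners and 5620, 6476 and 7385 CPM in non-runners (lowest, median, highest). Its largest member was Atp5a1, at a mean of 2262 CPM over all animals. Set against the mean log2 level of those 12 genes in each animal, the difference between runners and non-runners was 0.16 for Sirt3, 0.06 for Sirt7, 0.06 for Sirt5, 0.01 for Sirt4, -0.10 for Sirt1, -0.14 for Sirt2 and -0.16 for Sirt6, given as a description. These are plain differences of means, without terms for day and time. Over the 7 genes, the SD between animals ran from 0.12 to 0.27 in runners and from 0.10 to 0.28 in non-runners.

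Endothelial markers rose in 14 of 14 genes, with summed levels of 381, 498 and 667 CPM in runners and 358, 426 and 483 CPM in non-runners, and none was at 0. Of pericyte and smooth muscle markers 3 of 8 rose and 1 fell, and 2 of 8 fibroblast and 2 of 8 macrophage markers rose. Of 7 slow fibre markers 1 was called, as higher, while all 7 had log2 differences above 0, with a median of 0.51 and a highest of 1.54. Their sum was 51.5, 62.4 and 248 CPM in runners and 50.5, 59.5 and 99.3 CPM in non-runners. That sum was led by Atp2a2, at a mean of 56.9 CPM over the 62 animals, and shows little of the other slow markers. Of 9 fast fibre markers 1 rose and 2 fell. Of 6 adipocyte markers 1 rose, of 5 Schwann cell markers 1 fell, and of 4 satellite cell and 4 erythrocyte markers 0 passed. Of all genes, 8.41% were called as higher in runners and 14% in all. Counts of 1 in lists this short are therefore not read as changes of the tissue. In cohort 1 alone 8 endothelial, 2 pericyte and smooth muscle, 2 fibroblast and 0 macrophage markers rose, and in cohort 2 alone 2, 0, 0 and 0. Without the libraries high in ribosomal-RNA-like reads the numbers were 9, 2, 1 and 0. Of all genes, 4.31%, 0.42% and 12.1% were called in these settings, in that order. Of the erythrocyte markers 1 was called with counts summed per session, where 8.76% of all genes were called.

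**Figure D5:**
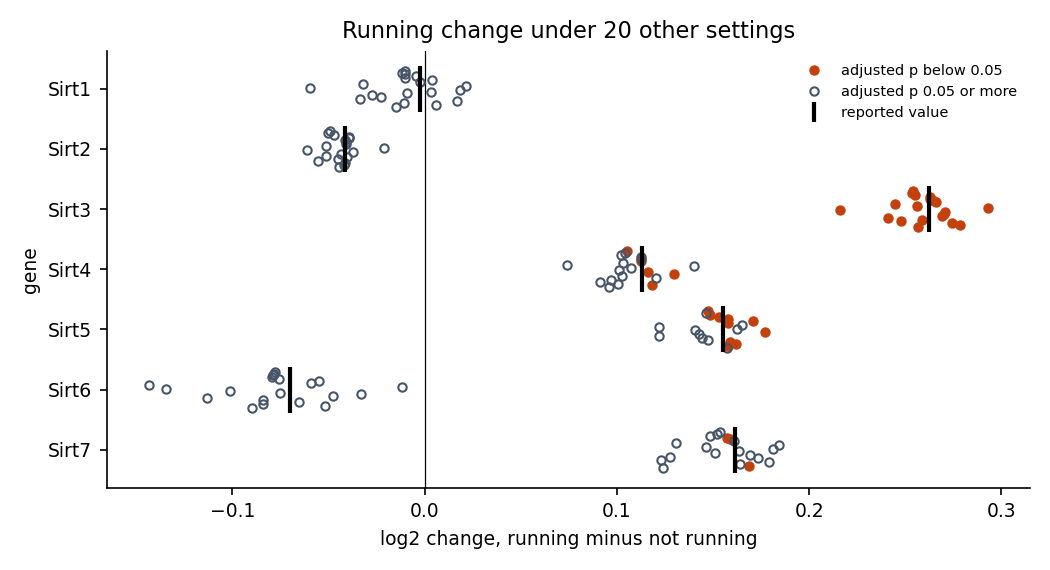
Log2 change with running of each sirtuin under 20 other settings (circles, filled where the adjusted p is below 0.05) and as reported (black bar). Sirt3 is filled throughout, between 0.22 and 0.29, and Sirt4 and Sirt5 stay above 0 but are filled in 5 and 10 settings.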

How the data were processed

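Raw read counts per gene were deposited, as whole numbers. The submitters' processing notes name STAR 2.7.3a, featureCounts 2.0.0 and the build mm10 for the authors' processing. Neither the annotation release nor the strand setting of the counting is given in the sources used here. The kit kept strand and selected poly-A RNA, per the labels' protocols. Symbols were matched for 99.8% of identifiers.

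Counts were tested in R 4.3.3 with edgeR 4.0.16 (filterByExpr by group, minimum count 10 and minimum total 15; TMM scaling; robust quasi-likelihood F test, two-sided). The fit held 8 groups, 8 days and the time of termination, with 46 residual degrees of freedom. Benjamini-Hochberg adjustment ran over all genes tested, and adjusted values below 0.05 were called. CPM use TMM-scaled library sizes, and likeness used log2 CPM with a prior count of 2. Alternatives were DESeq2 1.42.0, limma 3.58.1 with session as a random block, other scaling, filters and covariates, single cohorts, session sums, and leaving out days, libraries high in ribosomal-RNA-like reads or 1 animal. Each animal is a separate sample, so p-values measure the spread between animals.

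The 7 members and the gene lists were chosen with earlier results of these data known. Named genes are all sirtuins, up to 4 tested members per list with the smallest p for running, the smallest for NR where described, the 3 genes most like each sirtuin, and genes overlapping or next to a sirtuin. Some lists share genes, such as Ppargc1a and Myh4. Promoters are from RefSeq (GRCm38.p6), and protein sequences were not used here.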

Additional observations from a re-analysis of the deposited data

Results flagged for a closer look

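Among 56 sets of 1 sirtuin in 1 group, 1 had an animal apart from the rest by Dixon's criterion, which chance alone meets in about 1 in 20 sets. Sirt3 in non-running mice with neither supplement was 18.4 CPM in replicate 2, with the next animal at 14.9 and the lowest at 11.7. Without this animal, a setting chosen after the data were seen, the running change of Sirt3 was 0.28 on the log2 scale. There 4 sirtuins were called for running, Sirt7 being the fourth, beside 14.1% of all genes.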

How the results depend on the processing

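Of the 7 sirtuins, Sirt3 was called for running in 20 of 20 other settings, with log2 changes from 0.22 to 0.29 (adjusted p 8.04e-06 to 0.0386). The number of sirtuins called, 3 as reported, was 1 (Sirt3) without a low count filter, in cohort 1 alone, in cohort 2 alone, without the libraries high in ribosomal-RNA-like reads and with counts summed per session. It lay between 1 and 4 when 1 day or the animal that stood apart was left out, and was 1 without day 1, 4, 5 or 6. Without those days 7.05%, 8.07%, 10.3% and 12.5% of all genes were called, in that order, and 3.81% without the filter. Sirt4 kept its sign but missed the threshold with log2 changes of 0.10 without the filter, 0.10 in DESeq2, 0.11 without day and time, 0.10 in limma's voom with session as a random block, 0.074 in cohort 1, 0.14 in cohort 2, 0.11 without the high libraries and 0.10 per session, and ranged from 0.091 to 0.13 when a day or animal was left out. Its adjusted p over all settings ran from 0.0288 to 0.509. Sirt5 missed it at 0.15 without the filter, 0.17 in cohort 1, 0.12 in cohort 2, 0.16 without the high libraries and 0.16 per session, with 0.12 to 0.18 on leaving out a day or animal, and its adjusted p ran from 0.0169 to 0.46. Sirt7 passed at 0.16 without day and time, and its range on leaving out a day or animal was 0.12 to 0.18, with 0.17 and a call without the animal apart. The cause of these shifts was not tested. A single cohort, or the set without a day, also holds fewer animals.

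With the replicate block in place of day and time, 3 sirtuins were called, beside 13.6% of all genes. Sirt4 was lost at 0.11 (edgeR adjusted p = 0.068) and Sirt7 gained at 0.16 (edgeR adjusted p = 0.0434). Replicate numbers did not pair the animals: the mean correlation of deviations was 0.00906 for the same number and -0.00124 for different ones, and 13 of 62 animals correlated best with their own number.

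Of all genes, 2035 were called for running, 1223 up. The number was 1333 without the filter, 623 in cohort 1, 63 in cohort 2, 1275 per session, and 1036 without day 1, 1189 without day 4. The split was 1104 up of 2143 with RLE scaling, 1213 of 2381 with DESeq2 and 834 of 1779 without the high libraries. For NR, PT, their interactions and noon, 0 sirtuins were called in each setting run. Counts per library were lowest for Sirt6 and Sirt7, with medians of 74 and 95.5. The part of depth in their results was not tested.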
